A study of Homo sapiens with 8 samples.

Results

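The genes described here encode the secreted and membrane-bound metalloproteases of the MMP, ADAM and ADAMTS families, the ADAMTS-like proteins, the tissue inhibitors of metalloproteases (TIMPs) and the plasminogen activator system. They were chosen by gene symbol, which matched 82 rows and 77 symbols of a table of 63677 genes. A value of at least 10 normalized reads in at least 4 of 8 libraries was reached by 42 of the 82 rows, and these are called the measured members. That minimum was reached by 19559 genes of the whole table, which were tested. Of the 42 members, 37 stood at 10 or more in all 8 libraries. ADAMTS2, ADAMTS14, ADAMTS15, ADAMTSL1 and PLAT reached 10 in fewer libraries of a group. ADAMTS2, ADAMTS15, ADAMTSL1 and PLAT reached it in all 4 shSRC1 libraries and in 1 or 2 of the shNT libraries, so their inclusion rests on the group in which they are higher. The same holds for ADAMTS14, which reached it in all 4 shNT libraries and in 2 shSRC1 libraries.

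LY2 is an endocrine-resistant variant of the estrogen receptor-positive breast cancer line MCF-7. The 2 groups were LY2 cells stably carrying a non-targeting short hairpin RNA (shNT) and LY2 cells stably carrying a short hairpin RNA against NCOA1 (shSRC1), the gene of the nuclear receptor coactivator SRC-1. Both were grown under 500 ng/mL puromycin with 1e-08 mol/L 4-hydroxytamoxifen in 10% charcoal-stripped serum, kept without steroids for 72 h and then given 1e-07 mol/L 4-hydroxytamoxifen for 8 h. There was no arm without tamoxifen. Each group had 4 libraries of poly(A)-selected RNA. The labels do not say whether the cells were clones or whether the replicates were separate cultures, so the p-values reflect only how far these libraries differ, and that spread can be technical. In bulk RNA, fewer cells with a transcript and less transcript per cell cannot be told apart.

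Matrix metalloproteases are zinc enzymes, made as inactive precursors, that cut collagens, gelatin, laminins and cell-surface proteins. ADAMs are membrane proteins, some of which release growth factors and receptors from the cell surface and some of which lack a catalytic zinc site and act in adhesion. ADAMTS enzymes are secreted and cut proteoglycans and procollagens. TIMPs block these enzymes, and the plasminogen activators with their receptor PLAUR and their serpin inhibitors control a serine protease cascade at the cell surface. In breast cancer these systems are known for their part in matrix remodelling and invasion.

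The shNT libraries held 58459196 to 67022036 reads in genes and the shSRC1 libraries 33771775 to 66248960. The lowest depth was that of shSRC1 replicate 2. NCOA1 stood at 4381, 4212, 4467 and 4525 normalized reads in the shNT libraries and at 1927, 1895, 2215 and 2107 in the shSRC1 libraries, so the targeted transcript was lower in each library labelled shSRC1. Its log2 fold change was -1.11 (SE 0.08, limma adjusted p = 2.25e-07). Across genes, Spearman's rho between GC content and a library's deviation from the mean of all libraries ran from -0.219 to 0.180 in shNT and from -0.224 to 0.481 in shSRC1, highest in shSRC1 replicate 1. All 8 breast epithelial markers examined were measured, and 3 of them, KRT8, KRT18 and KRT19, rose. The summed level of all 8 epithelial markers was 340043 to 416533 in shNT and 513845 to 583254 in shSRC1, and its part in the results below was not tested. The summed level of 8 fibroblast markers was 1634 to 2189 in shNT and 1452 to 1978 in shSRC1, nearly all of it COL1A1. That of 8 leukocyte markers was 56.6 to 117 and 62.7 to 86.1, with PTPRC at a mean of 3.43 and 3.42. That of 5 endothelial markers was 232 to 277 and 222 to 289, nearly all of it VWF, with PECAM1 at 0. Of these markers 5 fibroblast, 3 leukocyte and 1 endothelial gene reached the minimum, and none of them passed the test. The fibroblast gene DCN stood at 0, 16.0, 24.1 and 15.3 in shNT and at 0.949, 1.75, 19.1 and 28.4 in shSRC1. LUM and the inhibitor gene A2M were likewise lowest in shNT replicate 1 and shSRC1 replicates 1 and 2. Whether this library pattern bears on genes with low values was not tested. Among the untested, the endothelial receptor gene KDR stood at 2.78, 2.67, 5.57 and 3.59 in shNT and at 6.65, 29.7, 27.3 and 12.8 in shSRC1, without overlap.

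Of the 42 measured members, 10 rose and 11 fell in shSRC1 and 21 did not pass the test (limma adjusted p under 0.05 over all 19559 genes). Over all tested genes 23.2% passed, 12% higher and 11.2% lower. By family, 50% of the measured MMP genes passed, 44.4% of the ADAM, 41.7% of the ADAMTS, 25% of the ADAMTSL and 100% of the TIMP genes. These families hold only 3 to 12 measured genes each. The median log2 fold change of the members was -0.07, beside -0.00 over all tested genes. The 4 shNT and 4 shSRC1 values did not overlap for 20 members, 10 in each direction, where 29.0% of all tested genes did not overlap. Of all tested genes 3.54% both passed the test and changed at least 2-fold on the log2(value + 1) scale. Both conditions were met by 6 members, namely MMP16, ADAMTS2 and SERPINE2, which rose, and ADAMTS1, ADAMTS7 and PLAUR, which fell. Leaving out 1 library at a time kept 17 to 20 of the 21 calls. Leaving out both shNT replicate 3 and shSRC1 replicate 2 kept 17.

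**Figure D1:**
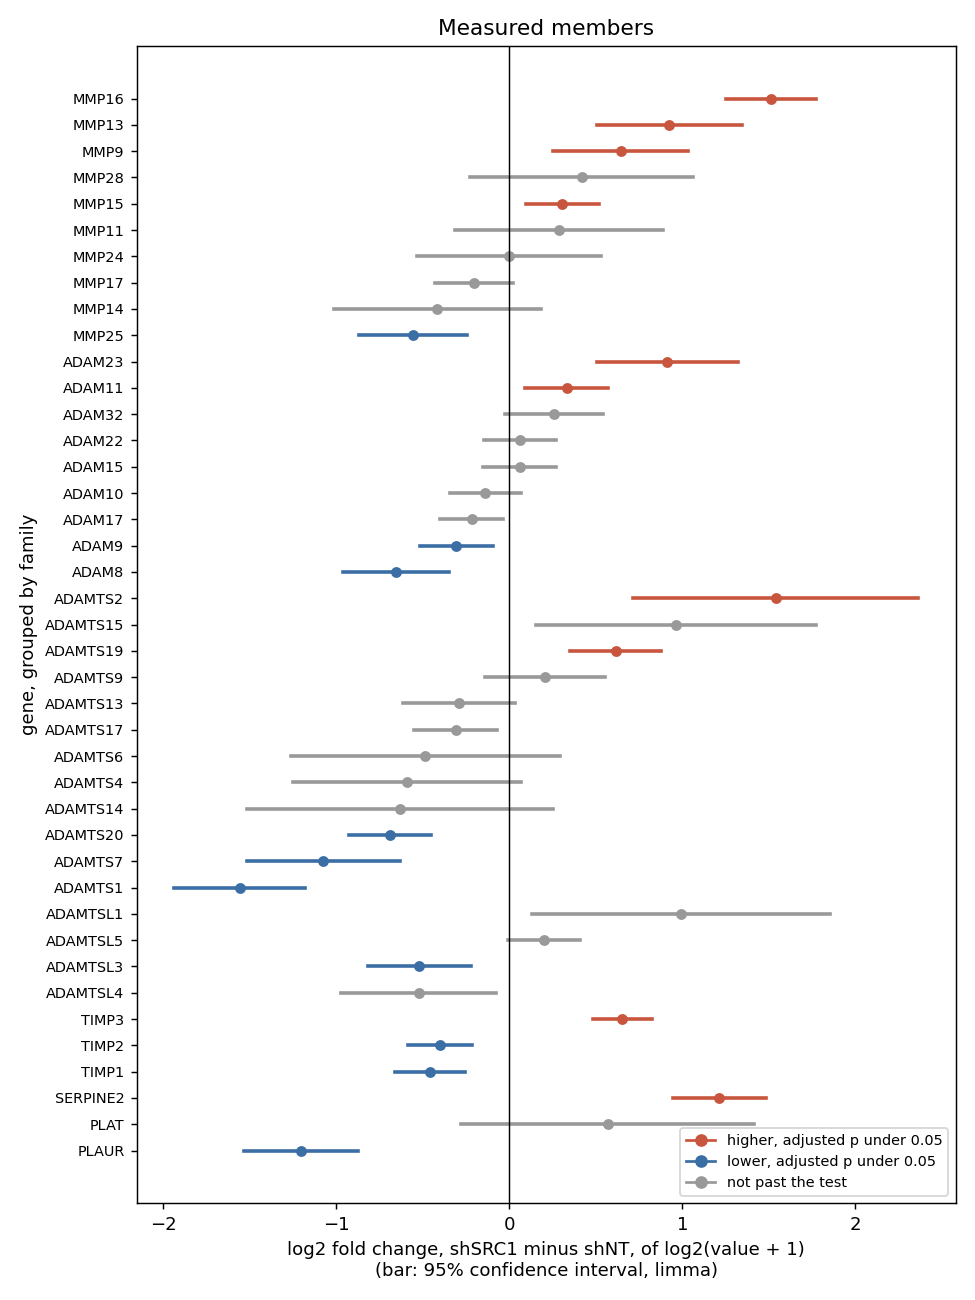
Log2 fold change (shSRC1 minus shNT, horizontal axis) with its 95% confidence interval from limma for 41 of the 42 measured members, grouped by family. Red members rose, blue members fell and grey members did not pass an adjusted p of 0.05; the values run from -1.56 for ADAMTS1 to 1.54 for ADAMTS2.

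Among the matrix metalloproteases, 4 of 10 measured genes rose (MMP16, MMP13, MMP9 and MMP15), 1 fell (MMP25) and 5 did not pass the test, with a median log2 fold change of 0.30. MMP16 encodes a membrane-anchored protease. It stood at 367, 367, 507 and 395 normalized reads in shNT and at 1049, 1041, 1256 and 1307 in shSRC1. The lowest shSRC1 library was well above the highest shNT library, and the ratio of the means was 2.84 (log2 fold change 1.51, SE 0.12, limma adjusted p = 9.03e-07).

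MMP13, a collagenase gene, stood at 39.0, 59.5, 63.1 and 46.6 in shNT and at 109, 107, 89.1 and 88.9 in shSRC1. All shSRC1 libraries were above all shNT libraries (ratio of means 1.89, log2 fold change 0.92, SE 0.20, limma adjusted p = 0.0044). MMP9 encodes a gelatinase and stood at 128, 179, 101 and 155 in shNT and at 266, 185, 188 and 234 in shSRC1. The groups did not overlap, but the highest shNT library and the lowest shSRC1 library were close, and the log2 difference of 0.64 (SE 0.18, limma adjusted p = 0.0211) missed the threshold without shNT replicate 1 (adjusted p = 0.0530), without shSRC1 replicate 1 (0.0789) and without shSRC1 replicate 4 (0.0600). The antisense transcript SLC12A5-AS1 overlaps MMP9 and stood at a mean of 147 in shNT and 209 in shSRC1; counting by strand is not given in the sources used here, so reads of the 2 genes cannot be told apart.

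The membrane-type protease MMP15 had the highest level per transcript length of the family. It stood at 3552, 3200, 2962 and 3296 normalized reads in shNT and at 4884, 3882, 3709 and 3682 in shSRC1. The groups did not overlap and shSRC1 replicate 1 was the highest library (ratio of means 1.24, log2 fold change 0.31, SE 0.10, limma adjusted p = 0.0377). This rise missed the threshold when shNT replicate 2, 3 or 4 was left out (adjusted p = 0.0598, 0.0626 and 0.0650) and when shSRC1 replicate 1 or 2 was left out (0.0930 and 0.0649). MMP25, whose protein is held at the cell surface by a lipid anchor, stood at 451, 382, 583 and 419 in shNT and at 384, 292, 304 and 263 in shSRC1. The highest shSRC1 library overlapped the lowest shNT library (log2 fold change -0.56, SE 0.15, limma adjusted p = 0.0139), and the fall missed the threshold without both shNT replicate 3 and shSRC1 replicate 2 (adjusted p = 0.0529). MMP25-AS1, antisense to it and more abundant, stood at a mean of 1204 in shNT and 966 in shSRC1, so without strand the values of MMP25 are uncertain.

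The members of the family that did not pass were MMP11, MMP14, MMP17, MMP24 and MMP28, with log2 fold changes from -0.42 for MMP14 to 0.42 for MMP28. MMP14, which encodes the membrane-type protease that activates the precursor of MMP2, had low values of 53.8, 31.1, 67.8 and 37.7 in shNT and 37.0, 47.2, 27.3 and 27.5 in shSRC1, and the groups overlapped (95% confidence interval -1.02 to 0.18, limma adjusted p = 0.293). MMP17 stood at 1419 ± 126 and 1238 ± 180 (shNT and shSRC1, SD, n = 4 each), a log2 fold change of -0.20 with a limma adjusted p of 0.174, which became 0.0470 without shSRC1 replicate 1.

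The gelatinase gene MMP2 had 14 reads in all in shNT and 6 in shSRC1. It was thus under the minimum, as were the collagenase gene MMP1 and the stromelysin gene MMP10. MMP10 lies near MMP13 and MMP1 in a cluster of matrix metalloprotease genes on chromosome 11, and had 3 reads in shNT and 30 in shSRC1, with normalized values of 0.928, 0, 0.928 and 0.897 against 12.3, 12.2, 2.73 and 6.41. Every shSRC1 library was above every shNT library, and the ratio of the groups was 11.5 with an exact 95% counting interval of 3.58 to 59.0. With no filter on low values its limma adjusted p was 0.0081. MMP1 had 4 and 16 reads (ratio 4.61, counting interval 1.49 to 18.9), but the groups overlapped, since shSRC1 replicate 3 had none. With no filter the limma adjusted p of MMP1 was 0.283. Of the other genes of that cluster, MMP3, MMP7, MMP8, MMP20 and MMP27 had no read in any library.

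**Figure D2:**
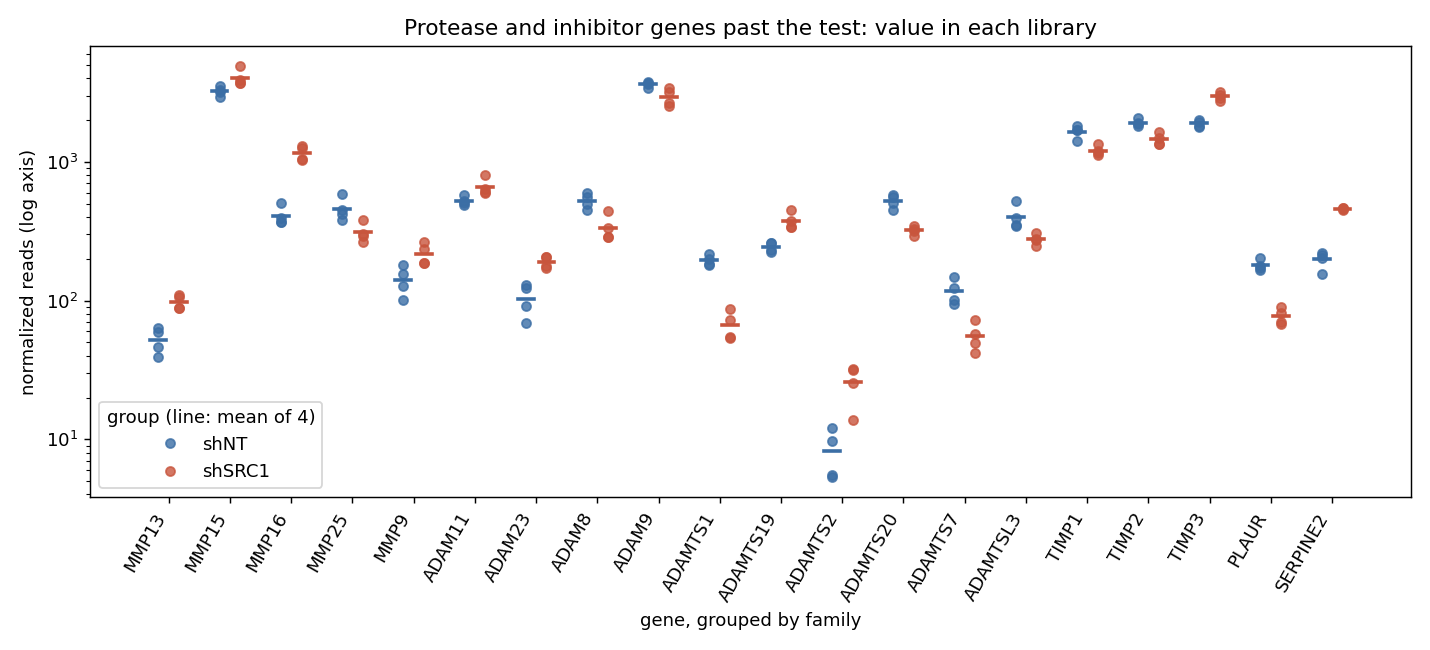
Normalized reads (log axis) in each of the 8 libraries for 20 of the 21 members that passed the test, grouped by family. Points are libraries and short lines the means of 4; only MMP25 and ADAM9 have overlapping groups.

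Among the ADAM genes, 2 of 9 measured rose (ADAM23 and ADAM11), 2 fell (ADAM8 and ADAM9) and 5 did not pass, with a median log2 fold change of 0.06. ADAM22 was followed because it has been described as a gene that SRC-1 acts on in endocrine-resistant breast cancer cells. Its protein has no catalytic zinc site and binds secreted LGI proteins at the cell surface. ADAM22 stood at 525, 560, 580 and 577 normalized reads in shNT and at 572, 534, 579 and 658 in shSRC1. The groups overlapped, with means of 561 ± 25 and 586 ± 52 (SD, n = 4 each). Its log2 fold change was 0.06 with a 95% confidence interval of -0.15 to 0.27 (limma adjusted p = 0.679), and an exact two-sided permutation test gave p = 0.429, where 0.0286 is the smallest that 4 against 4 libraries allow. The interval leaves room for changes of up to 0.15 downward or 0.27 upward on the log2 scale. Of 40 neighbouring protein-coding genes on chromosome 7, 16 were lower and 5 higher in shSRC1, with a median log2 fold change of -0.30. After correction of the libraries for length and GC content of transcripts, the value for ADAM22 was 0.20, with an adjusted p of 0.0512, and in the 18 alternatives the adjusted p was between that value and 0.987.

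The closest relatives of ADAM22, ADAM23 and ADAM11, likewise encode proteins without a catalytic zinc site. ADAM23 stood at 68.7, 129, 91.0 and 123 in shNT and at 206, 205, 176 and 170 in shSRC1. The groups did not overlap and the ratio of the means was 1.84 (log2 fold change 0.91, SE 0.19, limma adjusted p = 0.0038). ADAM11 stood at 573, 486, 506 and 520 in shNT and at 803, 635, 606 and 595 in shSRC1, also without overlap, which is 0.33 on the log2 scale (SE 0.11, limma adjusted p = 0.0450). Leaving out shSRC1 or shNT libraries ended the call, namely shNT replicate 2, 3 or 4 (adjusted p = 0.0896, 0.0631 and 0.0822) and shSRC1 replicate 1, 2 or 3 (0.117, 0.0750 and 0.0560).

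Of 8 genes listed as ligands, partners and relatives of ADAM22, 5 were measured, 4 rose and none fell, beside 23.2% called among all tested genes. The 4 include the relatives ADAM11 and ADAM23, which are members already counted above, so the list adds only 2 further calls. The fifth, LGI3, did not pass (limma adjusted p = 0.0714) and reached 10 in no shNT library and all 4 shSRC1 libraries, so it was tested through the group in which it is higher. The other 2 calls were LGI2, a secreted ligand gene, and DLG4, which encodes a synaptic scaffold protein. LGI2 stood at 38.0, 45.3, 21.4 and 14.4 in shNT and at 54.1, 85.7, 52.7 and 58.6 in shSRC1 (log2 fold change 1.16, SE 0.32, limma adjusted p = 0.0191), a difference that missed the threshold without shSRC1 replicate 2 (adjusted p = 0.0596). DLG4 stood at 80.7, 67.5, 112 and 64.6 in shNT and at 128, 133, 115 and 111 in shSRC1. Of its 40 neighbouring genes on the chromosome 27 were higher and 1 lower, with a median log2 fold change of 0.46, and the part of this in the result was not tested. Its own value was 0.61 (SE 0.19, limma adjusted p = 0.0316), which was lost without shNT replicate 1, 2 or 4 (0.0600, 0.0662 and 0.0856) and without shSRC1 replicate 1, 2 or 3 (0.0804, 0.0779 and 0.0534). LGI1, the best-known ligand, had no read. The potassium channel gene KCNA1 was under the minimum and not tested, so it is not in the count of falls. It stood at 18.6, 8.00, 25.1 and 14.4 in shNT and at 0.949, 1.75, 0.909 and 2.75 in shSRC1, lower without overlap.

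ADAM10 and ADAM17 encode the main sheddases, enzymes that cut receptors, adhesion proteins and growth factor precursors off the cell surface. ADAM10 stood at 2606, 2722, 2875 and 2897 in shNT and at 2142, 2383, 2773 and 2831 in shSRC1, so the groups overlapped (log2 fold change -0.14, 95% confidence interval -0.34 to 0.06, limma adjusted p = 0.298). ADAM17 stood at 2626, 2744, 2574 and 2774 in shNT and at 2077, 2155, 2406 and 2599 in shSRC1. Its highest shSRC1 library overlapped the lowest shNT library, and its log2 difference of -0.22 (SE 0.09) missed the threshold (limma adjusted p = 0.0790). Without shSRC1 replicate 4 the adjusted p was 0.0422 and the value -0.28. Without shSRC1 replicate 1 they were 0.175 and -0.17, and after correction for length and GC content 0.411 and -0.06.

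ADAM9, a catalytically active and widely expressed ADAM, stood at 3391, 3727, 3652 and 3761 in shNT and at 2513, 2680, 3209 and 3434 in shSRC1. The groups overlapped at 1 library each. Its log2 fold change was -0.31 (SE 0.10, limma adjusted p = 0.0383), and leaving out shNT replicate 2 or 4 ended the call (adjusted p = 0.0647 and 0.0849), as did leaving out shSRC1 replicate 1 or 2 (0.108 and 0.112). ADAM8, best known from leukocytes and also active as a protease, stood at 556, 496, 599 and 452 in shNT and at 440, 334, 286 and 286 in shSRC1. It fell without overlap, by 0.66 on the log2 scale (SE 0.14, limma adjusted p = 0.0049), while of 29 neighbouring genes on chromosome 10, 7 were lower and none higher. ADAM15, an active ADAM, stood at 12154, 11961, 9193 and 11702 in shNT and at 13063, 11258, 11083 and 11280 in shSRC1, with overlap (95% confidence interval -0.15 to 0.27, limma adjusted p = 0.697). The fifth member that did not pass, ADAM32, had a log2 fold change of 0.26 and a limma adjusted p of 0.171, which became 0.49 and 0.0114 after correction for length and GC content.

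**Figure D3:**
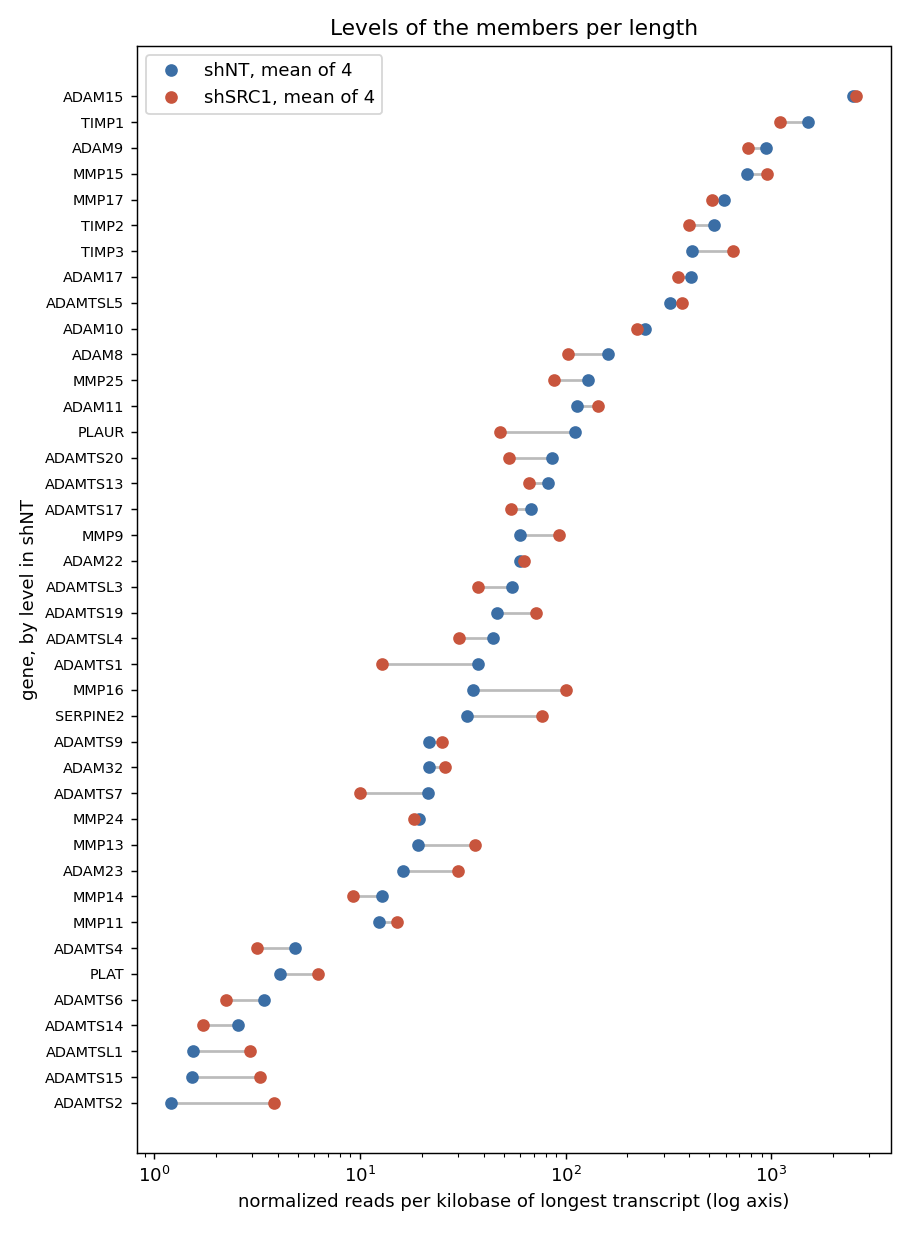
Normalized reads per kilobase of the longest annotated transcript (log axis), mean of 4 libraries, in shNT (blue) and shSRC1 (red) for 40 of the 41 members with an annotated length, ordered by the shNT level. ADAM15 is the highest at 2496 and ADAMTS2 the lowest at 1.21.

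Per kilobase of the longest annotated transcript, ADAM15 had the highest shNT level of the members at 2496 normalized reads, followed by TIMP1 at 1512, ADAM9 at 946, MMP15 at 765 and MMP17 at 589. TIMP2, TIMP3, ADAM17, ADAMTSL5 and ADAM10 followed at 526, 412, 408, 321 and 243 on the same scale. TIMP3 and ADAM17 were neighbours in that order whose shNT levels were close. In shSRC1, MMP15 stood at 950 per kilobase and ADAM9 at 771, so their order was the other way round from shNT. All secreted ADAMTS enzymes were below 100 per kilobase in both groups, with ADAMTS20 highest at 86.0 in shNT. Lengths of the transcripts in use were not measured, and levels between genes depend on them.

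The ADAMTS enzymes showed 2 rises (ADAMTS2 and ADAMTS19) and 3 falls (ADAMTS1, ADAMTS20 and ADAMTS7) among 12 measured genes, with a median log2 fold change of -0.40. ADAMTS1, which cuts the proteoglycans versican and aggrecan, stood at 182, 182, 216 and 201 normalized reads in shNT and at 72.2, 54.2, 86.3 and 54.1 in shSRC1. Every shSRC1 library was below every shNT library, and the mean was 2.93-fold lower (log2 fold change -1.56, SE 0.18, limma adjusted p = 2.76e-05). ADAMTS20, also a versican-cutting enzyme, stood at 447, 506, 576 and 562 in shNT and at 328, 320, 294 and 347 in shSRC1. No shSRC1 library reached the lowest shNT library (log2 fold change -0.69, SE 0.11, limma adjusted p = 6.41e-04). Its close relative ADAMTS9 stood at 166 ± 28 and 191 ± 28 (SD, n = 4 each) and did not pass (limma adjusted p = 0.370).

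ADAMTS7, which cuts cartilage oligomeric matrix protein, stood at 123, 95.1, 149 and 101 in shNT and at 72.2, 57.7, 49.1 and 42.2 in shSRC1. All shSRC1 libraries were lower, and the log2 fold change was -1.08 (SE 0.21, limma adjusted p = 0.0024). This gene has pseudogene copies that can share reads, and it overlaps the far more abundant MORF4L1 on the other strand, which stood at a mean of 12855 in shNT and 14463 in shSRC1, so its values are uncertain. ADAMTS19 stood at 225, 259, 259 and 231 in shNT and at 338, 339, 373 and 449 in shSRC1, without overlap (log2 fold change 0.61, SE 0.12, limma adjusted p = 0.0030). Its antisense transcript ADAMTS19-AS1 had means of 52.2 and 96.1, and reads of the 2 genes cannot be told apart without strand. ADAMTS17, the closest relative of ADAMTS19, stood at 419 ± 31 and 338 ± 39 (SD, n = 4 each), a log2 fold change of -0.31 that did not pass (limma adjusted p = 0.0594), though without shSRC1 replicate 1 the adjusted p was 0.0327.

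ADAMTS2, which trims procollagen, was near the minimum. It stood at 5.57, 9.77, 12.1 and 5.38 in shNT and at 32.3, 31.5, 25.4 and 13.7 in shSRC1. There was no overlap, the ratio of the means was 3.14, and the log2 difference of 1.54 (SE 0.39, limma adjusted p = 0.0110) had a wide 95% confidence interval of 0.72 to 2.36. ADAMTS14, a procollagen-trimming enzyme of the same kind, stood at 13.4 ± 2.2 and 9.10 ± 4.77 (SD, n = 4 each, limma adjusted p = 0.277). The other members that did not pass were ADAMTS4, ADAMTS6, ADAMTS13 and ADAMTS15, with log2 fold changes of -0.59, -0.49, -0.29 and 0.96.

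ADAMTS-like proteins resemble ADAMTS enzymes but lack the protease domain. Of 4 measured, 1 fell and none rose. ADAMTSL3 stood at 392, 343, 520 and 349 in shNT and at 279, 308, 272 and 246 in shSRC1, and all shSRC1 libraries were below all shNT libraries (log2 fold change -0.52, SE 0.14, limma adjusted p = 0.0153). ADAMTSL4, a fibrillin-binding protein gene, had non-overlapping groups at 171, 155, 282 and 158 against 135, 147, 151 and 90.7, but a wide spread, with shNT replicate 3 far above the rest, and did not pass (limma adjusted p = 0.0812). ADAMTSL1 differed by 0.99 (limma adjusted p = 0.0882) and ADAMTSL5 by 0.20 (limma adjusted p = 0.144) on the log2 scale; without shNT replicate 1, in which ADAMTSL1 was highest among the shNT libraries, its value was 1.35 and its adjusted p 0.0284.

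All 3 measured TIMP genes passed the test, beside 23.2% of all tested genes, and they moved in different directions. TIMP3, whose protein is bound to the matrix and also inhibits ADAM17 and several ADAMTS enzymes, stood at 1955, 2013, 1817 and 1796 normalized reads in shNT and at 3215, 3046, 2909 and 2761 in shSRC1. It rose without overlap by a ratio of means of 1.57 (log2 fold change 0.65, SE 0.08, limma adjusted p = 6.26e-05), and stayed between 0.62 and 0.69 on the log2 scale over 18 alternatives. TIMP1, a secreted inhibitor, stood at 1689, 1820, 1420 and 1694 in shNT and at 1339, 1120, 1192 and 1161 in shSRC1. It fell without overlap, and its mean was 1.38-fold lower (log2 fold change -0.46, SE 0.10, limma adjusted p = 0.0038). TIMP2, which also takes part in the activation of pro-MMP2 by MMP14, stood at 2060, 1923, 1892 and 1811 in shNT and at 1631, 1489, 1347 and 1358 in shSRC1. It too fell without overlap, 1.32-fold in the mean (log2 fold change -0.40, SE 0.09, limma adjusted p = 0.0048). The fourth gene, TIMP4, had no read in any library. TIMP1 and TIMP3 lie within the synapsin genes SYN1 and SYN3 on the other strand, whose means were at most 9.54.

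In the plasminogen system, the urokinase receptor gene PLAUR fell, the inhibitor gene SERPINE2 rose, and both activator genes were low. PLAUR stood at 171, 166, 178 and 203 in shNT and at 70.3, 68.2, 81.8 and 89.8 in shSRC1. The groups were far apart, with a mean 2.32-fold lower in shSRC1 (log2 fold change -1.21, SE 0.15, limma adjusted p = 8.02e-05).

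SERPINE2 encodes protease nexin, a cell-bound inhibitor of thrombin, urokinase and plasmin. It stood at 214, 222, 155 and 204.5 in shNT and at 462, 455, 451 and 465.5 in shSRC1. The shSRC1 libraries were close together and all above the shNT libraries, with a ratio of means of 2.30 (log2 fold change 1.21, SE 0.13, limma adjusted p = 1.25e-05). The urokinase gene PLAU had 10 reads in shNT and 8 in shSRC1 in all, and no difference was detectable at this depth (ratio 0.921, exact 95% counting interval 0.316 to 2.59). PLAT, the tissue plasminogen activator gene, stood at 16.7, 8.89, 22.3 and 8.97 in shNT and at 13.3, 36.7, 20.9 and 15.6 in shSRC1, with overlap (limma adjusted p = 0.311).

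Promoter sequences are shown for the inhibitors and the receptor with the clearest changes in either direction, to set beside their values the letters of a motif for AP-1, a factor known to act on many protease genes. RefSeq's table for GRCh38.p14 held 26 of the 42 members. In the 250 bases before the start, TGANTCA (a motif for AP-1, the same on both strands) was found in 1 of these 26, PLAUR, and in 6.57% of all 35116 promoters in the table. Other forms of an AP-1 site were not searched, so a window without TGANTCA can still hold one. The full estrogen response element (GGTCA, any 3 bases, then TGACC, also the same on both strands) was in none of the 26 and in 0.0399% of all. The GC box GGGCGG, searched on both strands, was in 23 of the 26 and in 42.6% of all, a table that includes noncoding genes. It was in all 6 promoters of members that rose, 5 of 6 of those that fell and 12 of 14 of the others. Each sequence below runs 5′ to 3′ on the gene's strand and ends at the base before the start, with TGANTCA and GGGCGG matches in capitals.
PLAUR, fell, chr19:43670170-43670419, minus strand: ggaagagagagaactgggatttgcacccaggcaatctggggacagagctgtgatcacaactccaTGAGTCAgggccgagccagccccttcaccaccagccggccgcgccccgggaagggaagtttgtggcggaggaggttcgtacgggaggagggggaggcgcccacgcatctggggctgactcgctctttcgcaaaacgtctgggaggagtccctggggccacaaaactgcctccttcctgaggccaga
SERPINE2, rose, chr2:224031479-224031728, minus strand: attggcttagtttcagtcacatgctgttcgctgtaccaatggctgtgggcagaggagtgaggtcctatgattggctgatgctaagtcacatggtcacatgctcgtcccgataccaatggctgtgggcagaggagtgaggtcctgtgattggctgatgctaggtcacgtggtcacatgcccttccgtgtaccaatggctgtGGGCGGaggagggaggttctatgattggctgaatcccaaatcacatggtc
TIMP1, fell, chrX:47582186-47582435, plus strand: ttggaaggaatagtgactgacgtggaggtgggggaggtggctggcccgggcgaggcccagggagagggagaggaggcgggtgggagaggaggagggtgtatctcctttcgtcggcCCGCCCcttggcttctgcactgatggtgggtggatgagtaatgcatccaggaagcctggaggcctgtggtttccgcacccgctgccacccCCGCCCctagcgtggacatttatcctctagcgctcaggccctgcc
TIMP3, rose, chr22:32801455-32801704, plus strand: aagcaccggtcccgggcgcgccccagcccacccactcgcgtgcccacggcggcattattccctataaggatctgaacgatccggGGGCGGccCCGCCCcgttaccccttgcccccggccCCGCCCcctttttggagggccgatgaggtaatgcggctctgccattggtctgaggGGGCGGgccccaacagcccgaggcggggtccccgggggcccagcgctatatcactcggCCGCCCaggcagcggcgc
The TGANTCA match of PLAUR begins 186 bases before the start and the PLAUR window held no GC box, while the TIMP3 window held 5 GC boxes, that of TIMP1 2 and that of SERPINE2 1. A match is a description of letters and not a measured binding site. Of 12 measured genes for AP-1 factors, ETS factors and RUNX2, 3 fell and none rose, or 25.0% called beside 23.2% of all tested genes. The AP-1 subunit genes FOSL1 and FOSB were among them. The subunit genes FOS, FOSL2, JUN, JUNB and JUND did not pass, with log2 fold changes of 0.22, -0.01, 0.28, 0.13 and 0.32. Their shNT means were 398, 4710, 3682, 7620 and 3904, beside 396 for FOSL1 and 83.7 for FOSB. JUN was higher in shSRC1 without overlap. Whether these factors bear on the members was not tested. FOSL1 stood at 423, 391, 373 and 396 in shNT and at 236, 208, 157 and 183 in shSRC1 (log2 fold change -1.02, SE 0.13, limma adjusted p = 9.67e-05), and FOSB at 100.2, 106.6, 68.7 and 59.2 against 29.4, 38.5, 38.2 and 47.7 (log2 fold change -1.08, SE 0.24, limma adjusted p = 0.0051).

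Genes that act before the proteases were next described. Furin-like convertases cut the inhibitory propeptide from many ADAMs and membrane-type MMPs. Of 4 measured, 1 rose and 1 fell (50% called, beside 23.2% of all tested genes). PCSK5 stood at 22.7 ± 7.4 and 52.7 ± 18.0 (shNT and shSRC1, SD, n = 4 each) with overlapping groups (difference on the log2 scale 1.16, SE 0.30, limma adjusted p = 0.0123). PCSK7 stood at 3126 ± 272 and 2555 ± 131 (SD, n = 4 each), which is -0.29 on the log2 scale (SE 0.08, limma adjusted p = 0.0241) that missed the threshold without shNT replicate 1 (0.0685), shSRC1 replicate 2 (0.0648) or shSRC1 replicate 4 (0.0671).

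Of 9 genes for partners that carry ADAM10 or ADAM17 to the surface, 1 rose and 2 fell (33.3% called, beside 23.2% of all tested genes). The tetraspanin genes TSPAN14 and TSPAN15, partners of ADAM10, fell by 0.30 (SE 0.08, limma adjusted p = 0.0149) and 0.31 (SE 0.10, limma adjusted p = 0.0299) on the log2 scale. TSPAN14 missed the threshold without shSRC1 replicate 2 (0.0528). TSPAN15 missed it without shNT replicate 1, 2 or 4 (0.0787, 0.0746 and 0.0715) and without shSRC1 replicate 2, 3 or 4 (0.0790, 0.0709 and 0.0679). TSPAN33, also a tetraspanin partner of ADAM10, rose from 487 ± 63 to 619 ± 70 (SD, n = 4 each; log2 fold change 0.35, SE 0.12, limma adjusted p = 0.0488), and missed the threshold with any 1 library left out (0.0501 to 0.133) except shSRC1 replicate 3. Of 40 genes around TSPAN15 the median log2 fold change was -0.25.

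Of 19 measured genes for proteins that ADAM10 or ADAM17 shed, 3 rose and 8 fell, or 57.9% called beside 23.2% of all tested genes, with a median log2 fold change of -0.14. The heparan sulfate proteoglycan gene SDC1 stood at 19817, 19736, 15567 and 18943 in shNT and at 11141, 10259, 9624 and 9268 in shSRC1. It fell without overlap (log2 fold change -0.87, SE 0.10, limma adjusted p = 2.16e-05). The related gene SDC4 moved the other way, also without overlap (log2 fold change 0.32, SE 0.09, limma adjusted p = 0.0197). The adhesion molecule gene L1CAM stood at 8512, 7390, 8369 and 7040 in shNT and at 5844, 4510, 4366 and 4091 in shSRC1, also without overlap (log2 fold change -0.74, SE 0.11, limma adjusted p = 2.80e-04). The EGF receptor ligand genes AREG and TGFA were among the 3 that rose, from 490 ± 60 to 821.5 ± 97 and from 350 ± 52 to 543 ± 17 normalized reads (SD, n = 4 each; limma adjusted p = 4.89e-04 and 0.0015). The ligand gene EGF moved the other way, at 33.4, 27.5, 34.4 and 23.3 in shNT and 5.70, 10.5, 10.9 and 5.50 in shSRC1 (log2 fold change -1.79, SE 0.34, limma adjusted p = 0.0021), and the ligand genes HBEGF and BTC did not pass (limma adjusted p = 0.498 and 0.478). EGF reached 10 in all 4 shNT libraries and in only 2 shSRC1 libraries, so it was tested through the group in which it is higher. Shed protein was not measured.

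Of 16 measured genes for matrix proteins that these enzymes cut, 3 rose and 2 fell (31.25% called, beside 23.2% of all tested genes). Fibronectin (FN1) stood at 2183, 1614, 2375 and 1758 in shNT and at 3733, 3182, 3305 and 3264 in shSRC1, without overlap (log2 fold change 0.78, SE 0.11, limma adjusted p = 2.72e-04). Thrombospondin-1 (THBS1), a matrix protein that ADAMTS1 cuts, rose from 10668 ± 931 to 17104 ± 794 (SD, n = 4 each), which is 0.68 on the log2 scale (SE 0.08, limma adjusted p = 6.14e-05). Biglycan (BGN), a small proteoglycan, rose from 11.5 ± 8.9 to 70.5 ± 18.4 (SD, n = 4 each; log2 fold change 2.72, SE 0.40, limma adjusted p = 3.28e-04). It reached 10 in only 2 shNT libraries and in all 4 shSRC1 libraries, so it was tested through the group in which it is higher.

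Among inhibitors and surface serine proteases outside the member families, the shares called were set beside the 23.2% of all tested genes. Of 7 other measured inhibitors, 1 rose and none fell (14.3%). This was TFPI2, a matrix-bound serine protease inhibitor gene, at 251, 274, 243 and 270 in shNT and 334, 411, 395 and 414 in shSRC1 (log2 fold change 0.58, SE 0.11, limma adjusted p = 0.0025). Of 12 measured plasminogen-binding proteins and membrane serine proteases, 1 rose and none fell (8.33%), namely ANXA2, a cell-surface co-receptor for plasminogen. It stood at 26510 ± 4261 and 34333 ± 1421 (SD, n = 4 each), which is 0.39 on the log2 scale (SE 0.11, limma adjusted p = 0.0205) that missed the threshold without shSRC1 replicate 2 (0.0543) or shSRC1 replicate 4 (0.0579).

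Each member was also set beside up to 20 tested protein-coding genes on each side. The neighbour medians of the measured members ran from -0.30 around ADAM22 to 0.24 around ADAMTS4. For the members that changed at least 2-fold, they were -0.11 around MMP16, -0.03 around ADAMTS1, 0.11 around PLAUR, -0.08 around SERPINE2, 0.06 around ADAMTS2 and -0.0016 around ADAMTS7. The part of the neighbourhood in these changes was not tested. Among the members that rose, MMP13 and ADAM23 had neighbours that were lower in the median (-0.21 and -0.12). Among those that fell, TIMP1 and TIMP2 had neighbours that were higher (0.14 each). For MMP15 and MMP9 the neighbour medians of 0.15 and 0.18 had the sign of the change, as did 0.16 around TIMP3, -0.14 around ADAM8 and -0.11 around ADAMTS20, and their part in these results was not tested. ADAM17, ADAMTS4, ADAMTS13, MMP11 and MMP24 overlap a more abundant gene on the other strand, so their values are uncertain too.

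**Figure D4:**
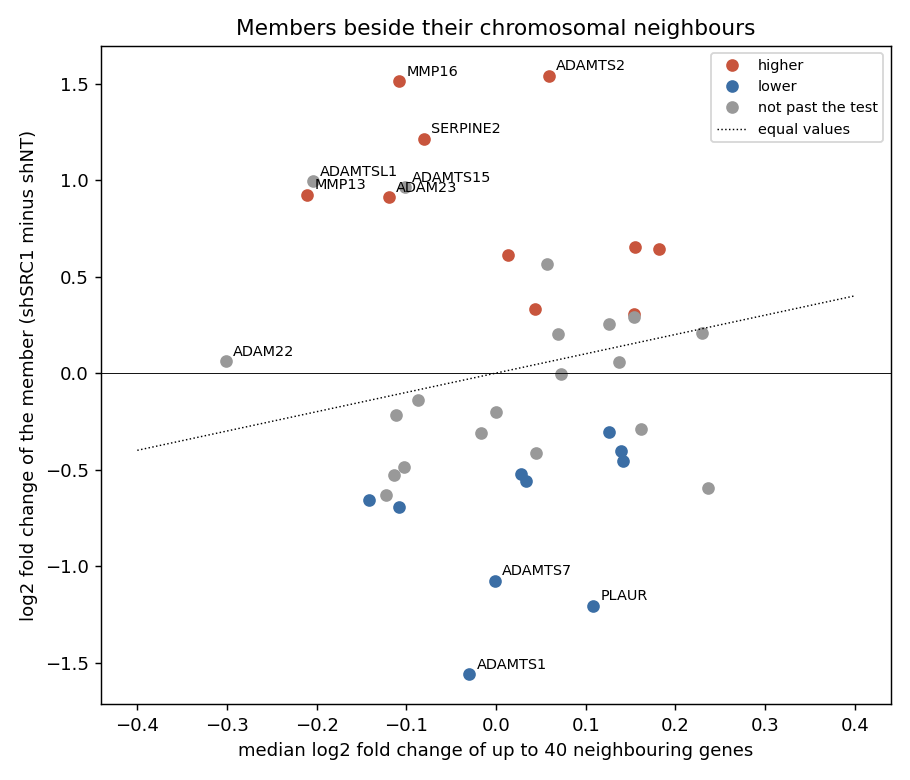
Log2 fold change of each member (vertical axis, shSRC1 minus shNT) against the median log2 fold change of up to 40 neighbouring genes (horizontal axis) for 40 of the 41 members with an annotated position; the dotted line marks equal values. MMP16 at 1.51 and ADAMTS1 at -1.56 lie far from the line, with neighbour medians of -0.11 and -0.03.

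The 40 rows under the minimum included 17 with no read in any library and 13 with at least 10 reads over all libraries. The 17 included ADAM7 and ADAM30 and the second table entries of 5 symbols. ADAMTS3, a procollagen-trimming enzyme gene, had 18 reads in shNT against 48 (ratio 3.07, exact 95% counting interval 1.75 to 5.61), but its shSRC1 values of 15.2, 5.25, 3.63 and 22.9 overlapped the shNT values of 6.50, 2.67, 1.86 and 5.38. With no filter its limma adjusted p was 0.225, so the spread between libraries left no call. The testis gene ADAM2 had 1 read in shNT and 15 in shSRC1, and its highest value, 9.49, was that of shSRC1 replicate 1. A count of 0 in a library allows up to 3 reads, or 2.67 to 5.25 normalized reads depending on the library. Intervals and this floor cover counting error only, because without molecular identifiers 2 reads can come from 1 molecule.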

How the data were processed

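The 8 libraries, 4 shNT and 4 shSRC1 by the labels, were made from poly(A)-selected RNA. The authors deposited a table of signal values, gene read counts divided by the size factor of each library; TopHat2 (2.0.12), DESeq, DESeq2, HTSeq (0.6.1) and the build GRCh37 are named in the submitters' processing notes. Neither annotation nor counting options are stated there. Every value was a whole multiple of the value of 1 read (100% within 0.001 reads), so whole reads were recovered.

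The test was limma 3.58.1 in R 4.3.3 (trend, robust) on log2(value + 1), without a block, over 19559 genes with at least 10 in at least 4 libraries. Two-sided p-values were adjusted over all of these by Benjamini-Hochberg and called under 0.05. Fold changes on this scale understate changes of low genes. The test was checked on simulated counts. The 18 alternatives were edgeR 4.0.16 scalings and quasi-likelihood test on recovered reads (21 members called, 4637 genes in all), other filters and pseudocounts, a replicate block, left-out libraries, and correction for transcript length and GC content, known for 96.1% of tested genes.

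Members and lists were chosen with earlier results of these data known. Genes named by rule were NCOA1, ADAM22, every member past the threshold, 14 members fixed by name and up to 2 called genes of each related list; others were named after their values were seen. GENCODE 29, on GRCh38, gave chromosome, gene order, overlaps and transcript length by Ensembl identifier, and no coordinates of it are given. The values of 1 measured member are not reported here; it is included in the counts over members.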

Additional observations from a re-analysis of the deposited data

Results flagged for a closer look

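Among 86 sets of 4 libraries (the named members and NCOA1 in each group), 6 had a library far from the other 3 by Dixon's test at 95%; chance flags about 1 set in 20. ADAM15 was low in shNT replicate 3 (9193) and high in shSRC1 replicate 1 (13063) within its groups. MMP15 stood at 4884 in shSRC1 replicate 1, above the others. ADAMTSL4 stood at 282 in shNT replicate 3, above the others. ADAM32 stood at 155 in shSRC1 replicate 1 and ADAMTS9 at 124 in shNT replicate 4, each below the others. The deviations of shSRC1 replicate 1 followed GC content more than those of any other library, with a rho of 0.481; whether this bears on these values was not tested.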

How the results depend on the processing

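The counts of members that rose ran from 7 to 11 and of members that fell from 9 to 15 over the 18 alternatives, beside 10 and 11; the highest count of falls came with the replicate block. Over all genes, leaving out 1 library gave 1688 to 2524 higher and 1453 to 2291 lower genes, beside 2344 and 2194, and the 1453 lower genes were those without shSRC1 replicate 2. NCOA1 stayed between -1.15 and -1.05, and ADAM22 between 0.00 and 0.20 on the log2 scale and past the threshold in none. Some named genes outside the members, among them FOS, FOSL2, JUN, JUNB and JUND, were not followed through the alternatives. Of the genes that were followed, 3 changed sign under some setting, none of them called. ADAM10 was 0.056 with length and GC correction. ADAM15 ran from -0.036 (without shNT replicate 3) to 0.098 when 1 library was left out and was -0.020 without shNT replicate 3 and shSRC1 replicate 2. MMP24, at -0.0022, ran from -0.275 to 0.171 with 1 library left out, and was 0.182 without those 2, 0.0039 with upper-quartile scaling and 2.9e-05 with length and GC correction. Replicate numbers are shared between the groups, but the deviations of same-numbered libraries correlated at 0.242, -0.010, 0.128 and 0.144 and so did not show pairing for replicate 2; with the replicate block all 21 member calls were kept, ADAM17, ADAMTS17, ADAMTSL4 and MMP17 were added (adjusted p = 0.0344, 0.0372, 0.0252 and 0.0429), and 25 members and 6398 genes were called in all. With no filter on low values 18 of the 21 calls were kept, ADAM11, ADAM9 and MMP15 being lost, and MMP10 was added. TMM scaling lost ADAM11. With a minimum of 50, 19 of the 21 were tested, ADAMTS2 not among them. Depth limits PLAU, MMP2 and the other genes under the minimum.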
